A study of Arabidopsis thaliana with 18 samples.

Results

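The probe sets described here read genes of the mitochondrial genome of Arabidopsis thaliana. They are the probe sets with a single gene whose symbol in the platform annotation starts in lower case with nad, cox, cob, ccb, ccm, atp, mat, mtt, orf, rpl or rps and does not belong to the plastid genome. No expression filter was used to choose them. Of 22810 probe sets on the Affymetrix ATH1 array, 23 met this rule, and they name 16 genes of 13350 named by single-gene probe sets: nad1, nad2, nad4, nad4L, nad5, nad6, nad7, nad9, cox1, cox2, ccb203, ccb206, ccb382, ccb452, matR and orfX. The gene nad1 has 7 probe sets, nad5 has 2 and the other genes have 1 each. No single-gene probe set with a cob, atp, rpl, rps or mtt symbol of the mitochondrial genome was in the annotation. In the RefSeq gene table of TAIR10.1, which served for names alone, the older symbols ccb382, ccb203, ccb206, ccb452 and orfX are ccmFN1, ccmFN2, ccmB, ccmFC and mttB.

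RNA came from whole seedlings of 3 genotypes, all in the Columbia-0 background: wild type (WT) and the tocopherol-deficient mutants vte1-1 and vte2-1, called vte1 and vte2 below. VTE2 is the homogentisate phytyltransferase that opens tocopherol (vitamin E) synthesis, and VTE1 is the tocopherol cyclase that acts later. All seedlings had 5 days at 6 °C and were then taken after 1 day or 3 days at 22 °C on plates of Murashige and Skoog medium under a 12 h photoperiod. The 6 groups hold 3 biological replicates each, 18 arrays in all, and each mutant is represented by 1 allele. By its labels, the series asks how expression differs among these genotypes early after germination.

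Plant mitochondria keep a small genome of their own. It encodes core subunits of the respiratory chain, parts of the machinery that attaches heme to c-type cytochromes, a maturase and some ribosomal proteins, while most subunits of the same complexes are encoded in the nucleus and imported. Mitochondria of a dry seed are poorly developed and mature as the seed takes up water and germinates, when respiration of stored reserves feeds the seedling. Transcripts of nad1, nad2 and nad5 are assembled from separate precursors by trans-splicing, and matR lies inside an intron of nad1. Most plant mitochondrial messenger RNAs carry no stable poly(A) tail, and polyadenylation marks them for decay, whereas standard labelling for these arrays starts from poly(A). How far an array signal follows the abundance of such a transcript is not known from these files.

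Most of these probe sets were dim. The median signal of the 23 probe sets lay between 38.4 and 107.9 on the 18 arrays, below the median of all non-control probe sets on every array (121.8 to 181). Between 2 and 10 of the 23 lay above that array median. Over all arrays, the mean log2 level of a probe set ranged from the 2.38th percentile of all probe sets for matR to the 87.5th for ccb382, with nad4 at the 83.7th and cox1 at the 60.9th. A filter at the 30th percentile left 15 of the 23 in the tests across all genes. The lowest that passed was the nad1 probe set 257325_at (30.1st percentile) and the highest that did not was the nad5 probe set 257337_at (27.2nd). The other 7 that did not pass were nad2, nad7, matR, ccb203 and the nad1 probe sets 257323_at, 257327_at and 257329_at. In a bulk sample, fewer mitochondria or cells of a type and less RNA per cell cannot be told apart.

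The annotation limits what can be said of the source of a signal. A large copy of mitochondrial DNA sits in the nuclear genome of Columbia, on chromosome 2. In the annotation, 12 probe sets with several genes name a mitochondrial gene, 11 of them together with an AT2G07 locus of the nucleus, and they are left out here. Of the 23 probe sets used, 5 carry the suffix _s_at, which Affymetrix gives to probe sets that match more than 1 transcript: matR, orfX, ccb452, nad6 and the nad5 probe set 257338_s_at. A nuclear source of part of the signal was not tested for any of them. Which stretch of nad1 or nad5 each probe set reads is not given in the annotation used.

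One set of arrays stood apart. The ratio of 3′ to 5′ GAPDH signal was lowest on replicate 3 in each of the 6 groups. It lay between -0.62 and 0.43 on the log2 scale there, against 0.24 to 1.13 for replicates 1 and 2. The actin ratio was also lowest on replicate 3 in each group, at 2.70 to 4.51 against 4.24 to 5.36. These ratios depend on RNA integrity, and a lower one means relatively less 3′ signal. Several mitochondrial probe sets were low on the same arrays, and some dim ones were high. Replicate 3 had the highest signal of its group for nad2 in 5 groups and for ccb203 in 4. In each of the 6 groups, replicate 3 had the lowest signal for nad4, cox1 and the nad1 probe set 257324_at, 3 of 23 probe sets, against 1.79% of all non-control probe sets. It was lowest in at least 5 groups for nad9 and the nad5 probe set 257338_s_at as well, 5 of 23 against 7.4%. The part of RNA integrity in these values was not tested. Counts are therefore also given without replicate 3.

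**Figure D1:**
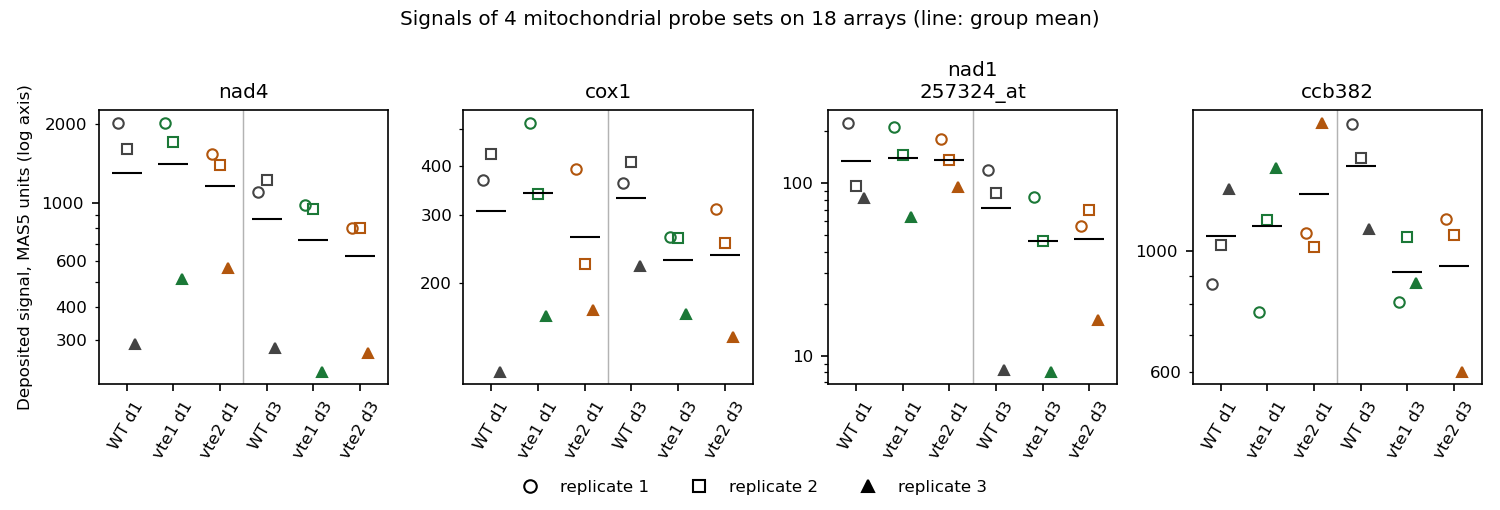
Deposited signal (log axis) of nad4, cox1, the nad1 probe set 257324_at and ccb382 on each of the 18 arrays, by genotype and day. Symbols mark the replicate number and lines the group mean. Replicate 3 is the lowest point of all 6 groups for the first 3 probe sets, and not for ccb382.

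NADH dehydrogenase (complex I) takes electrons from NADH into the respiratory chain, and 8 of the 16 genes encode its subunits. The gene nad4, for a proton-pumping membrane subunit, had the highest signal of them. On day 1, replicates 1, 2 and 3 read 2025.3, 1605.1 and 290.1 (WT), 2012.4, 1710.7 and 514.5 (vte1), and 1540.9, 1395.7 and 563.3 (vte2). On day 3 they read 1101.2, 1227.8 and 280.7 (WT), 980.8, 952.2 and 227.8 (vte1), and 806.1, 806.5 and 267.4 (vte2). Values of the other genes are listed in the same replicate order. Replicate 3 was between 1.35 and 2.55 log2 units below the mean of the other replicates in every group, so that the groups overlapped in every comparison. In the fit on all arrays without a replicate block, nad4 had no call between days (-0.43 ± 0.73 in WT, -0.98 ± 0.73 in vte1 and -0.90 ± 0.73 in vte2; log2 change ± SE). Without replicate 3, the change was -0.62 ± 0.17 in WT (adjusted p = 0.004), -0.93 ± 0.17 in vte1 (8.4e-05) and -0.85 ± 0.17 in vte2 (3e-04), all called.

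The 7 probe sets of nad1, which encodes the membrane subunit next to the quinone site, did not read alike. Their mean log2 levels lay between the 14.9th and the 38.3rd percentile, and 3 of them did not pass the filter. The probe set 257321_at read 127.7, 155.3 and 109 in vte1 at day 1 and 39.8, 30.7 and 36 at day 3, with no overlap (-1.40 ± 0.38, adjusted p = 0.0044). In vte2 it read 86.4, 95.6 and 95.5, then 66.5, 45.5 and 10.1, again with no overlap (-0.99 ± 0.38, adjusted p = 0.045). In WT the values overlapped, at 60.7, 139.9 and 58.4 and then 71.3, 100.4 and 43 (-0.18 ± 0.38, adjusted p = 0.73). The fall in vte1 lost its call only without replicate 2 of all groups (adjusted p = 0.078), and the fall in vte2 lost it in 11 of 17 alternatives, without replicate 3 among them (-0.55, adjusted p = 0.27).

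The nad1 probe set 257322_at was lower at day 3 in all 3 genotypes with no overlap in any. It read 85.1, 96.3 and 61.9 and then 40.6, 55.2 and 12.8 in WT (-0.89 ± 0.36, adjusted p = 0.051, not called). In vte1 it read 118, 95 and 116.6 and then 81.9, 26.6 and 38.4 (-0.97 ± 0.36, adjusted p = 0.031). In vte2 it read 60.9, 82.7 and 46.7 and then 34.6, 43.5 and 32.7 (-0.52 ± 0.36, adjusted p = 0.27). The call in vte1 was lost in 9 of 17 alternatives (adjusted p up to 0.21), and in WT the probe set was called in 7 of 17.

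The nad1 probe set 257324_at had the highest mean of the 7, with replicate 3 low throughout. WT arrays read 223.9, 96.8 and 81.7 on day 1 and 119.8, 87.4 and 8.3 on day 3, and vte1 arrays 211.2, 146.5 and 63.5 and then 83.6, 46.2 and 8.1. In vte2 the groups did not overlap, at 180.3, 135.4 and 95.3 and then 56.3, 70.3 and 16. In the fit on all arrays without a replicate block it was not called (-0.90, -1.32 and -1.26, each ± 0.58; adjusted p = 0.21, 0.061 and 0.091), and without replicate 3 it was called in vte1 (-1.22, adjusted p = 0.0088) and in vte2 (-1.07, adjusted p = 0.024). The probe set 257325_at, the last of the 4 that passed, read 119.9, 87.6 and 31.8 (WT), 55.2, 109.2 and 140.7 (vte1) and 27.9, 112.9 and 5.3 (vte2) on day 1, and 15.4, 98.4 and 6.3, 27.7, 94.8 and 3, and 8.2, 52.1 and 28.9 on day 3. Its replicates spread over most of that range within single groups, and all comparisons overlapped. Of the dim ones, 257323_at lay between 11 and 54, 257327_at between 2.3 and 76.2 and 257329_at between 1.4 and 56.1.

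The other complex I genes were low. The nad2 signals, for another proton-pumping subunit, on day 1 were 25.3, 6.8 and 35.1 (WT), 2.1, 1.5 and 5.2 (vte1) and 2.1, 4.5 and 2.5 (vte2), so that every mutant array lay below every WT array. On day 3 nad2 read 24.9, 85.4 and 103.7 (WT), 18, 16.9 and 68.8 (vte1) and 46.7, 22.2 and 47.6 (vte2), above all day 1 arrays of the same genotype in both mutants. It did not pass the filter. In the fit without a filter nad2 was higher at day 3 in vte1 (1.07 ± 0.41, adjusted p = 0.045) and in vte2 (1.25 ± 0.41, adjusted p = 0.025), and not called in WT (1.01 ± 0.41, adjusted p = 0.063); in that fit 18% of all probe sets rose in WT, 21.8% in vte1 and 15.8% in vte2. These calls were lost in 11 and 10 of 16 alternatives. With 22 units added before the logarithm, differences among signals this low are compressed.

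The nad7 signals, for a subunit of the peripheral arm, rose in WT from 5.1, 18.8 and 2.3 to 64.1, 40 and 82.6 with no overlap. In the fit without a filter that change was 1.46 ± 0.37 (adjusted p = 0.0039), and it was lost without replicate 1 (adjusted p = 0.072) or replicate 3 (0.051) of all groups. In vte1 it went from 15.4, 19.8 and 6 to 60.1, 39.3 and 20.6, also without overlap, and in vte2 from 16, 3.6 and 29.6 to 25.4, 33 and 56.3 (0.76 ± 0.37 and 0.67 ± 0.37, adjusted p = 0.11 and 0.20). The nad9 signals, for another subunit of that arm, were 65.7, 129.7 and 34.4 (WT), 178.8, 123.8 and 89.4 (vte1) and 110.6, 81 and 92.7 (vte2) on day 1, and 56.8, 71.8 and 11.3, 149.9, 65 and 45.5, and 57.8, 74.8 and 2.9 on day 3. In vte2 alone every day 3 array lay below every day 1 array (-1.01 ± 0.52, adjusted p = 0.13).

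The small membrane subunit gene nad4L read 63.7, 74.2 and 13 (WT), 107.9, 40.9 and 90.9 (vte1) and 84.5, 69.1 and 85.3 (vte2) on day 1, and 82, 96.8 and 56.6, 34.2, 68.9 and 29.4, and 27.5, 53.5 and 55.2 on day 3. In vte2 all day 3 arrays were below those of day 1 (-0.62 ± 0.41, adjusted p = 0.24) and below those of WT on day 3. The membrane subunit gene nad6 lay between 10.7 and 102.4. The nad5 probe sets 257337_at and 257338_s_at, for another proton-pumping subunit, lay between 2 and 101 and between 8.2 and 185.5. Groups of nad6 and nad5 overlapped in every comparison.

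Cytochrome c oxidase (complex IV) passes electrons to oxygen, and cox1 and cox2 encode its catalytic core. The cox1 signals on day 1 were 369.3, 430.4 and 117.6 (WT), 519.3, 338.9 and 163.4 (vte1) and 394.7, 222.8 and 170.1 (vte2). On day 3 they were 363.2, 409.8 and 221 (WT), 262.1, 260.2 and 165.3 (vte1) and 310.5, 252.6 and 144.3 (vte2). All groups overlapped, with changes between days of 0.24, -0.42 and -0.12 (each ± 0.45), and the one in vte1 was called without replicate 3 (-0.64 ± 0.26, adjusted p = 0.039).

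The cox2 signals were lower at day 3 in vte1 on every array, from 143.9, 96.3 and 76.7 to 3.1, 71.5 and 58.2 (-1.12 ± 0.56, adjusted p = 0.099). In WT they went from 229.4, 174.1 and 62.4 to 13.1, 120.1 and 68.8, with overlap (-1.07 ± 0.56, adjusted p = 0.13). In vte2 they went from 167.8, 116.5 and 80 to 57.9, 31.3 and 113.2, with overlap (-0.74 ± 0.56, adjusted p = 0.31). Without replicate 3 the fall was called in WT (-1.65, adjusted p = 0.021) and vte1 (-1.53, adjusted p = 0.028).

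The ccb genes encode parts of the system that matures c-type cytochromes. The gene ccb382 (ccmFN1), for a part of its heme lyase, was the brightest of all 23 probe sets. On day 1 it read 868, 1025.5 and 1300.7 (WT), 772.4, 1139.4 and 1421.5 (vte1) and 1077.9, 1017.4 and 1717.6 (vte2), with broad overlap. On day 3 it read 1711.7, 1480 and 1097.9 (WT), 805.1, 1060.3 and 873.3 (vte1) and 1144.8, 1067.1 and 600.2 (vte2), so that vte1 lay wholly below WT. The difference at day 3 was -0.62 ± 0.29 for vte1 and -0.63 ± 0.29 for vte2 (adjusted p = 0.46 and 0.35). Without replicate 3 of all groups, ccb382 was called lower in vte1 at day 3 (-0.77 ± 0.20, adjusted p = 0.013), where 5.68% of all probe sets tested were called lower.

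The gene ccb452 (ccmFC), for another heme lyase part, had the lowest spread within groups of the 15 probe sets tested, 0.28 log2 units. In vte1 it fell from 272.8, 222.8 and 261.2 at day 1 to 156.4, 59.3 and 104.6 at day 3, with no overlap (-1.16 ± 0.27, adjusted p = 0.0012). This call held in all 18 alternatives (adjusted p up to 0.048). In WT ccb452 read 154, 197.5 and 159.3 and then 177.6, 209.6 and 193.6 (0.17 ± 0.27, adjusted p = 0.63). In vte2 it read 214, 144 and 145.7 and then 121.8, 124.4 and 124.7, with no overlap (-0.36 ± 0.27, adjusted p = 0.30).

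The vte1 arrays of ccb452 lay above all WT arrays at day 1 (0.51 ± 0.27, adjusted p = 0.49) and below all of them at day 3 (-0.81 ± 0.27, adjusted p = 0.23). The change of the vte1 difference between the days was -1.33 ± 0.38. Its unadjusted p was 0.0022 and its adjusted p 0.099, so it did not pass, and it passed in none of 24 alternatives (adjusted p 0.065 to 1). The vte2 arrays also lay below all WT arrays at day 3 (-0.56 ± 0.27, adjusted p = 0.36).

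The gene ccb206 (ccmB), for a membrane part of the heme export step, had signals between 16 and 104.5. All vte1 arrays at day 1 (104.5, 87.7 and 82.6) were above those of WT (70.2, 80.3 and 40.4) and above those of vte1 at day 3 (27.7, 73.3 and 50.8), without a call in either comparison (0.43 ± 0.39 and -0.69 ± 0.39, adjusted p = 0.77 and 0.15). The gene ccb203 (ccmFN2) lay between 3.5 and 65.4 and did not pass the filter. The gene orfX (mttB), for a component of a Tat-type protein transport system, rose in WT on every array from 154.3, 92.8 and 109.2 to 202.9, 237.7 and 186.1, which missed the threshold (0.73 ± 0.31, adjusted p = 0.062). It overlapped between the days in vte1 (136.9, 150 and 163.1, then 149, 146.7 and 190.2) and in vte2 (109.1, 175.3 and 114.9, then 143.5, 242.7 and 72.2). The maturase gene matR, whose product takes part in intron splicing, was near the bottom of the array. On day 1 it read 3.4, 1.8 and 2.4 (WT), 3, 1.6 and 7.9 (vte1) and 6.3, 2.3 and 6.5 (vte2), and on day 3 it read 12.7, 9.7 and 2.8, 19.9, 3.7 and 15.9, and 2.2, 8.8 and 33.6, with overlap in every comparison.

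**Figure D2:**
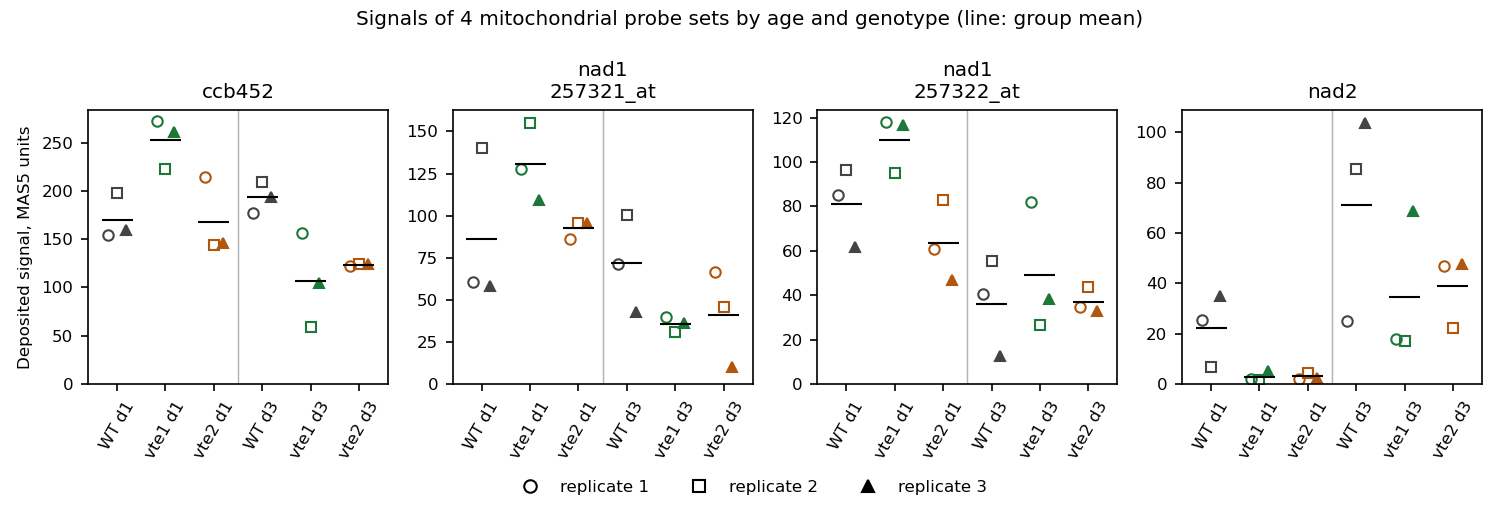
Deposited signal (linear axis) of ccb452, the nad1 probe sets 257321_at and 257322_at, and nad2 on each of the 18 arrays, by genotype and day, with lines at the group means. The first 3 fell between the days in vte1 without overlap, while nad2, a dim probe set left out by the filter, was near 0 in both mutants at day 1.

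No mitochondrial probe set was called different between a mutant and WT. At day 1, 0 of 15 tested probe sets were called between vte1 and WT, where 2.09% of all 15922 probe sets tested were called, and 0 between vte2 and WT (0.0942% of all). At day 3 the count was 0 for vte1 (0.301% of all) and 0 for vte2 (2.34% of all). Between the mutants it was 0 of 15 at day 1 (5.22% of all) and 0 at day 3 (3.52% of all). At an unadjusted limma p under 0.05, ccb452 and ccb382 were the 2 probe sets for each mutant at day 3, and the count was 0 for each mutant at day 1 and between the mutants at either day. With so few probe sets, the shares among all genes would give less than 1 call in each of these comparisons.

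The differences from WT, none of which was called, were mostly positive in vte1 at day 1 and mostly negative in both mutants at day 3. At day 1, 13 of 15 tested probe sets had a positive difference in vte1 against WT (median 0.31) and 9 of 15 in vte2 (median 0.10). At day 3, 5 of 15 were positive in vte1 (median -0.33) and 4 of 15 in vte2 (median -0.26). The median for vte1 at day 3 turned to 0.13 without its replicate 3, and that for vte2 at day 1 to -0.14 without its own replicate 1 or WT replicate 3. The medians of all probe sets tested were between -0.0044 and 0.052 in these 4 comparisons. The vte1 and vte2 comparisons share their WT arrays, so that their medians are not independent. The gene nad1 entered each median with several probe sets, so the 15 are not separate genes.

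The change of the mutant difference between the days was called for 0 of 15 in vte1 (1.06% of all) and 0 in vte2 (0.201% of all), with 2 and 1 at an unadjusted limma p under 0.05. Besides ccb452, the lowest p-values in vte1 were those of the nad1 probe set 257321_at (-1.22 ± 0.54, adjusted p = 0.35) and nad4L (-1.19 ± 0.58, adjusted p = 0.42). In vte2 they were those of ccb382 (-0.86 ± 0.41, adjusted p = 0.74), nad4L (-1.20 ± 0.58, adjusted p = 0.75) and the nad1 probe set 257321_at (-0.81 ± 0.54, adjusted p = 0.90).

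Some probe sets measured the difference far more closely than others. The SE of a difference between groups ranged from 0.27 for ccb452 to 0.73 for nad4 on the log2 scale. For nad4 the 95% interval of the difference from WT at day 3 reached from -1.80 to 1.27 in vte1 and from -1.90 to 1.17 in vte2, and for cox1 from -1.41 to 0.46 and from -1.40 to 0.46. Same-numbered arrays of vte2 and WT deviated together at day 3. In the fit blocked by replicate number, the nad4 difference between them kept its value of -0.37, its SE was 0.22 and its interval reached from -0.83 to 0.10, without a call (adjusted p = 0.45). Of the other differences with the lowest p-values, nad4L and the nad1 probe set 257321_at were at 0.56 ± 0.41 and 0.56 ± 0.38 in vte1 at day 1 (adjusted p = 0.69 and 0.66). At day 3 that nad1 probe set was at -0.66 ± 0.38 in vte1, without overlap with WT, and at -0.65 ± 0.38 in vte2 (adjusted p = 0.60 and 0.50).

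Groups without overlap were counted over all 23 probe sets. Against WT at day 1, 3 were higher (ccb206, ccb452 and the nad1 probe set 257323_at) and 1 lower (nad2) in vte1, where 6.17% of all non-control probe sets were higher and 7.3% lower. In vte2, 1 was higher (the nad1 probe set 257329_at) and 1 lower (nad2), with 4.87% and 4.27% of all. At day 3, 0 were higher and 3 lower in vte1 (ccb382, ccb452 and the nad1 probe set 257321_at; 7.89% and 7.39% of all), and 0 and 2 in vte2 (nad4L and ccb452; 8.63% and 9.12% of all). Between the mutants, 4 were lower in vte2 at day 1 (8.63% of all higher and 7.68% lower) and 0 differed at day 3 (9.58% and 11.7%).

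In vte2 at day 1, nad4L, the nad1 probe set 257325_at and ccb382 had the lowest p-values against WT (0.62, -0.73 and 0.23, adjusted p = 1 for each). Between the mutants, ccb452 was lower in vte2 than in vte1 on every array at day 1 (-0.55 ± 0.27, adjusted p = 0.31), as were the nad1 probe sets 257321_at and 257322_at (-0.40 and -0.64). The nad1 probe set 257325_at was at -1.05 ± 0.66 with overlap. At day 3, nad9, cox2 and ccb452 had the lowest p-values between the mutants (-0.80, 0.54 and 0.25, adjusted p = 0.52, 0.74 and 0.74).

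**Figure D3:**
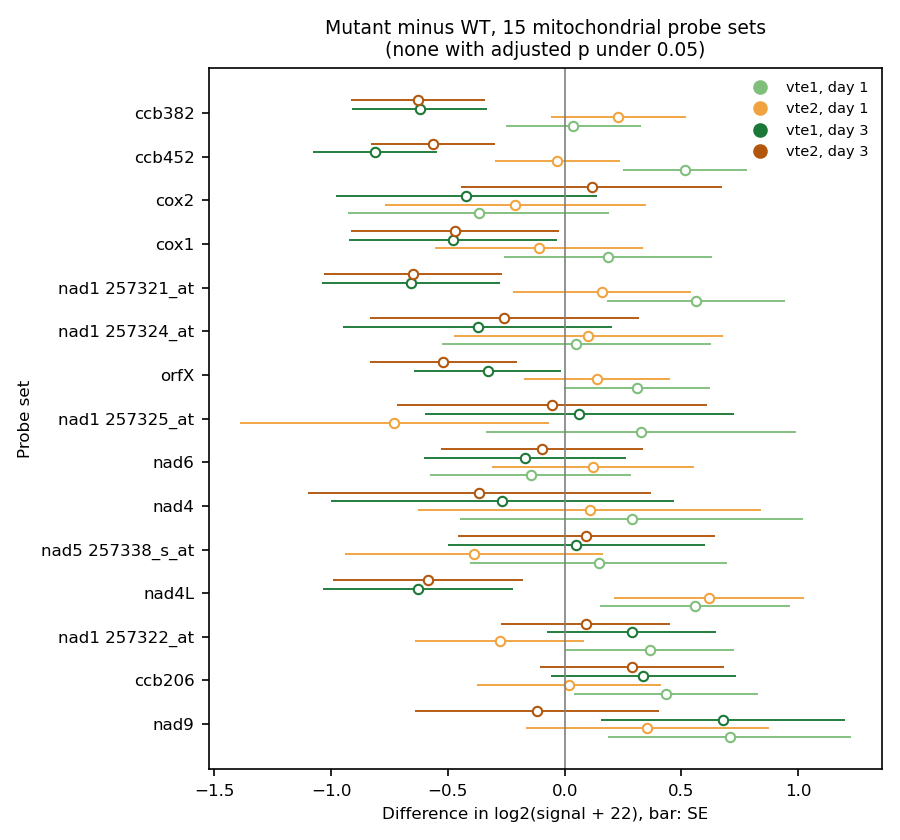
Difference of each mutant from WT in log2(signal + 22), with its SE, for the 15 mitochondrial probe sets tested, at day 1 and day 3. No point has an adjusted p under 0.05, and the bars of nad4 are the longest.

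Between day 1 and day 3 a few mitochondrial probe sets fell, and none of those tested rose. In vte1, 3 of 15 fell, namely ccb452 and the nad1 probe sets 257321_at and 257322_at, where 23.4% of all probe sets tested fell and 30% rose. In vte2, 1 of 15 fell, the nad1 probe set 257321_at (18.5% of all fell and 21.7% rose). In WT, 0 of 15 were called (22.8% of all fell and 24.6% rose), with 2 at an unadjusted limma p under 0.05. In each genotype the share of mitochondrial probe sets that fell was below that of all probe sets tested, though near it in vte1. That order turned in vte1 under both other scalings. It also turned there with the replicate block (5 of 15 fell, 24.9% of all) and without replicate 3 (6 of 15, 27.1% of all). In vte2 it turned under 1 of the scalings and with the block (4 of 15, 20.7% of all). In vte1, 8 of 15 fell after quantile normalization (29.3% of all fell and 24.3% rose), and 5 after median centring (29.8% fell and 24% rose). In vte2, 4 of 15 fell after quantile normalization (22.5% of all) and 1 after median centring (22.8% of all). In WT, 2 of 15 fell after quantile normalization (25.9% of all) and 1 after median centring (25.6% of all), so that the order held there. Over all 23 probe sets, groups without overlap between the days numbered 3 higher and 1 lower in WT (24.4% and 19.4% of all), 2 and 5 in vte1 (26.5% and 19.6%), and 1 and 6 in vte2 (22.4% and 18.6%).

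The median change between the days was -0.43 in WT, -0.69 in vte1 and -0.44 in vte2, against 0.075, 0.14 and 0.063 for all probe sets tested, and 6, 2 and 2 of the 15 had a positive change. The gene nad1 entered these medians with 4 probe sets (-0.18, -0.89, -0.90 and -0.90 in WT), so the 15 are not separate genes. Over all 23 probe sets, the dim ones included, the medians were 0.17, -0.56 and -0.23, and 12, 6 and 8 were positive. The WT median of the 15 also turned positive without day 3 replicate 3 (0.16) or without day 1 replicate 2 (0.031). Over all 18 alternatives the WT median ranged from -0.81 to 0.20, and it was highest with the filter at the 50th percentile. That filter left the 4 brightest probe sets, ccb382 (0.41 in WT), cox1 (0.24), ccb452 (0.17) and nad4 (-0.43). The medians in vte1 and vte2 were negative in all 18 alternatives (-1.21 to -0.40 and -0.74 to -0.23). Without replicate 3 the counts were 4 in WT (ccb382 and orfX higher, nad4 and cox2 lower; 30.2% of all rose and 26.2% fell), 6 in vte1 (nad4, cox1, cox2, ccb452 and the nad1 probe sets 257321_at and 257324_at, all lower; 35.7% of all rose and 27.1% fell) and 2 in vte2 (nad4 and the nad1 probe set 257324_at, both lower; 29.2% of all rose and 23.9% fell). In each genotype more of the 15 were called on the 12 arrays without replicate 3 than on all 18.

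**Figure D4:**
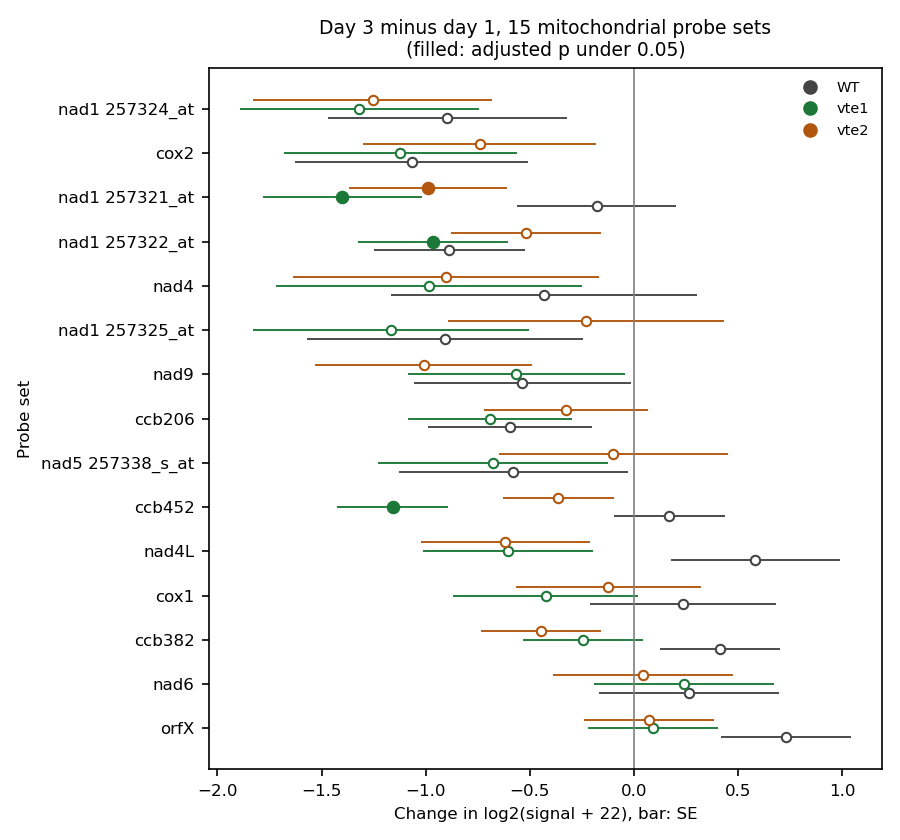
Change from day 1 to day 3 in log2(signal + 22), with its SE, of the 15 mitochondrial probe sets tested, in WT, vte1 and vte2. Filled points have an adjusted p under 0.05: ccb452 and the nad1 probe sets 257321_at and 257322_at in vte1, and 257321_at in vte2.

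The genes that work with these products in the same organelle are mostly nuclear, and they fell between the days. Of 59 nuclear loci for subunits of respiratory complexes, cytochrome c and ATP synthase, 35 had a probe set of their own and all passed the filter. Of these, 31 fell in WT (22.8% of all probe sets tested), 32 in vte1 (23.4% of all) and 25 in vte2 (18.5% of all), and none rose in this fit, with median changes of -1.04, -0.95 and -0.75. In WT the complex II iron-sulfur subunit gene SDH2-1 was called on a single probe set. It fell from 5665 ± 1154 to 1471 ± 30.3 (-1.91 ± 0.24, adjusted p = 3.6e-06). AT3G15640, a complex IV subunit gene, fell from 5655 ± 1319 to 1465 ± 267 (-1.92 ± 0.25, adjusted p = 4.5e-06). AT4G26210, for ATP synthase subunit g, changed by -2.24 and the cytochrome c gene CYTC-2 by -1.78. In vte1 those 4 genes stood at -2.03, -2.14, -2.60 and -2.03, and in vte2 at -1.19, -1.62, -2.13 and -1.43, all called.

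Genes of the plastid genome went the other way over the same arrays. Of 68 plastid probe sets tested, 45 rose in WT (24.6% of all probe sets tested), 52 in vte1 (30% of all) and 34 in vte2 (21.7% of all), and 1 fell in each, with medians of 1.47, 1.56 and 1.01. The 15 mitochondrial probe sets thus lay between those of the plastid and the nuclear respiratory genes in median in each genotype. The difference between these sets was not tested. Most of the mitochondrial probe sets were dim, and the 22 units added before the logarithm compress changes of dim probe sets. On replicate 3 the signal was below both others in each of the 6 groups for 4 of 69 plastid probe sets (5.8%), and in at least 5 groups for 13 of them (18.8%), against 3 and 5 of the 23 mitochondrial probe sets (13% and 21.7%).

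**Figure D5:**
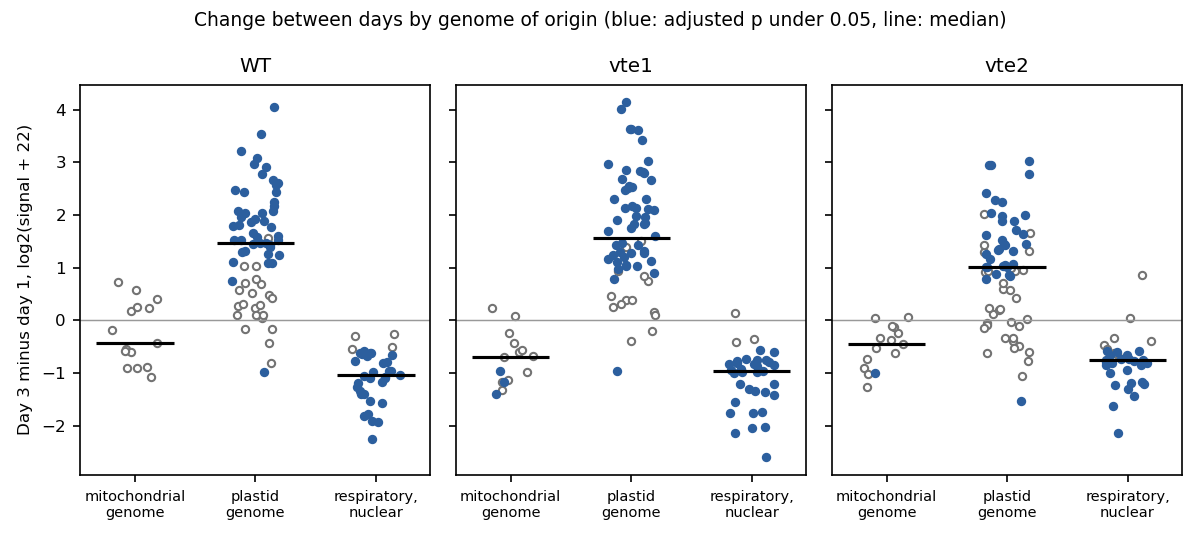
Change from day 1 to day 3 in log2(signal + 22) for probe sets of the mitochondrial genome (15), the plastid genome (68) and nuclear respiratory genes (35), in each genotype. Several of the 15 read nad1. Blue points have an adjusted p under 0.05 and lines mark medians, which are below 0 for the mitochondrial and nuclear respiratory sets and above 0 for the plastid set in all 3 genotypes.

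Of 20 nuclear loci for mitochondrial gene expression and genome upkeep, 5 could be tested. The single one called between the days was AT5G14580, the mitochondrial polynucleotide phosphorylase, which trims and degrades mitochondrial RNA. It fell from 351 ± 76.7 to 68.2 ± 35.8 in WT (-2.10 ± 0.34, adjusted p = 5.6e-05), from 423 ± 116 to 54.8 ± 4.22 in vte1 (-2.50) and from 261 ± 40.6 to 41.0 ± 29.8 in vte2 (-2.27), and its level was not called between genotypes. In each genotype 1 of 5 fell, near the share of all probe sets tested (22.8% in WT, 23.4% in vte1 and 18.5% in vte2). Of 14 loci for alternative dehydrogenases, alternative oxidases and uncoupling proteins, 4 could be tested. NDB3, an external NADH dehydrogenase that bypasses complex I, changed by -3.16 in WT, -4.21 in vte1 and -3.32 in vte2, and NDC1, a dehydrogenase of mitochondria and plastids, rose by 1.08, 1.35 and 0.92. Thus 1 of 4 fell and 1 of 4 rose in each genotype, where 24.6% of all rose in WT, 30% in vte1 and 21.7% in vte2. No locus of either list was called between a mutant and WT. Of 3 nuclear factors of cytochrome c maturation only CCMH could be tested, and it fell in vte1 (-0.88 ± 0.30, adjusted p = 0.019).

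Of 10 nuclear loci that respond to mitochondrial stress, 4 could be tested. At day 3, 1 of 4 was higher than in WT in vte1 and 1 of 4, a different gene, in vte2, where 0.301% and 2.34% of all probe sets were called. AT5G51440, a mitochondrial small heat shock protein, was higher in vte1 at 623 ± 325 against 116 ± 24.5 in WT (2.08 ± 0.38, adjusted p = 0.028). AT2G21640 (UPOX), a marker of mitochondrial oxidative stress, was higher in vte2 at 537 ± 110 against 85.0 ± 66.8 (2.54 ± 0.49, adjusted p = 0.0062). At day 1 UPOX read 1735 ± 816 in vte1 and 427 ± 44.6 in WT. On that day 0 of 4 were called against WT in vte1 or vte2 (2.09% and 0.0942% of all). With the replicate block, 1 of 4 was higher in vte1 at day 1 (0.408% of all). Of the 35 nuclear respiratory probe sets tested, 1 was higher in vte2 at day 3. It reads the complex III subunit gene AT5G25450, at 362 ± 60.3 against 109 ± 64.6 (1.64 ± 0.36, adjusted p = 0.016). In the other mutant comparisons with WT, 0 of the 35 were called. Whole seedlings mix tissues, and tissue markers also moved. The root genes EXPA7 and AT1G30870, 2 of 3 tested, were lower in vte1 than in WT at day 1 (-2.93 and -4.03), where 1.89% of all were lower. All 3 root genes tested, EXPA7, EXPA18 and AT1G30870, rose between the days in vte1 (2.68, 3.33 and 4.46), where 30% of all rose. In WT and in vte2, 0 of 3 were called between the days. RCA, the Rubisco activase of green tissue, rose between the days by 3.55 in WT, 4.04 in vte1 and 2.48 in vte2. Of the markers, 3 of 4 root loci, 1 of 6 green tissue loci and 0 of 6 seed reserve loci were tested. The part of tissue composition in the mitochondrial values was not tested.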

How the data were processed

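Labelled RNA from whole seedlings was hybridised to ATH1 arrays. The deposited table holds linear MAS5 intensity values, 1 signal for each probe set on each array; MAS5 is named in the submitters' processing notes, while version, scaling and filtering stay unnamed there and in the labels. The trimmed mean was about 500.1 on every array (lowest and highest 2% left out), while medians differ. Precision rests on the number of arrays.

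After removal of 64 control probe sets, 22 units were added before log2, and probe sets above the 30th percentile of mean log2 level were tested (15922 of 22746). Fold changes on this scale understate those of dim genes. All 18 arrays entered 1 limma fit (version 3.58.1, R 4.3.3, eBayes with a mean-variance trend) with a mean per group. P-values are two-sided and Benjamini-Hochberg adjusted over all probe sets of a contrast, called under 0.05; with 3 arrays against 3 an exact permutation test cannot go below 0.1. The fit was tested on simulated data drawn independently for each array. Those data held no replicate effect, so the simulation does not bear on the replicate effects seen here. Dim probe sets were fitted without the filter. The members and lists were chosen with earlier results of these data known. Values on all arrays are given for the brightest probe set of each class and, per contrast, for those called without overlap between groups, or else the 3 with the lowest p; dim genes, and those called only in an alternative, were added after their values were seen.

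Sample titles gave groups and replicate numbers and describe the replicates as biological. Same-numbered arrays were taken as paired where every pair's deviations from the group means correlated above 0.1, which held in 4 of 9 comparisons (vte1 and vte2 against WT and vte2 against vte1 at day 1, and vte2 against WT at day 3; r = 0.15 to 0.592). The replicate block changed no call on mitochondrial probe sets in those. Alternatives were other scalings, pseudocounts, filters, a fit without the trend, a fit on the arrays compared and left-out replicates. Sequences and coordinates were not used here.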

Additional observations from a re-analysis of the deposited data

How the results depend on the processing

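Of the comparisons between mutants and WT, between the mutants, and of the mutant difference between the days, 1 call of a mitochondrial probe set appeared in any alternative: ccb382 in vte1 against WT at day 3, without replicate 3 (counts of 0 to 1 over the left-out replicates). For day 3 against day 1 the count depended on the setting. In WT it was 0 and became 2 after quantile normalization, 1 after median centring, 1 with a pseudocount of 100, 1 without a filter (nad7), 2 with the replicate block and 1 without the variance trend. In vte1 it was 3 and became 8 after quantile normalization, 5 after median centring, 5 with the replicate block and 1 with a filter at the 50th percentile, which left 4 probe sets. In vte2 it was 1 and became 4 after quantile normalization, 4 with the replicate block, 0 with a pseudocount of 100 and 0 with the 50th percentile filter. Median centring moved every change between days by -0.12 in WT, -0.26 in vte1 and -0.16 in vte2 on the log2 scale. The block called nad1 257324_at in all 3 genotypes (adjusted p = 0.035 in WT, 0.0029 in vte1 and 0.0058 in vte2), nad4 in vte1 and vte2 (-0.98 and -0.90, adjusted p = 0.001 and 0.0029), 257322_at in WT (0.045) and nad9 in vte2 (0.045), beside the 3 and 1 already called. With it 24.5%, 24.9% and 20.7% of all probe sets fell in WT, vte1 and vte2, and 1 of the 35 nuclear respiratory probe sets rose in vte2. With replicates left out the counts were 0 to 4 in WT, 1 to 6 in vte1 and 0 to 2 in vte2, highest without replicate 3 of all groups. A single array moved the count in WT to 1 (day 1 replicate 1) or 2 (day 1 replicate 3 or day 3 replicate 2), and in vte2 to 0 for every array but day 3 replicate 1. Shares of all probe sets were not counted for the other pseudocounts, the 50th percentile filter or the fit without the trend. Nor were they counted where replicate 1, replicate 2 or single arrays were left out. Counts in those settings are therefore not a result about the mitochondrial probe sets. By their titles, the samples compared between days share only a replicate number. Over all probe sets tested, deviations of same-numbered arrays correlated at -0.000923 to 0.131 over the 3 genotypes. In 0 of 9 comparisons did every array correlate best with its own number. For nad4, cox1 and nad1 257324_at, though, replicate 3 was lowest in all 6 groups, at both days. Some differences that were never called fell to just below 0 when replicates were left out. Each was among the 3 with the lowest p of its comparison. These were nad4L in vte1 at day 1 (-0.0065 to 1.14, lowest without replicate 3) and ccb382 in vte2 at day 1 (-0.0042 to 0.38, lowest without its replicate 3). Between the mutants at day 3 they were ccb452 (-0.049 to 0.53, and -0.045 without vte1 replicate 2) and cox2 (-0.058 to 1.21, and -0.029 without replicate 1 of all groups). Where not stated, the cause was not tested. Dim signal kept 8 of the 23 probe sets out of the tests, and most of those tested were dim as well. Only 4 passed the filter at the 50th percentile.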
